A study of Mus musculus with 12 samples.

Results

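The genes described here are 46 genes of DNA replication and S phase, of 52635 genes in the deposited table. They were chosen by role. There are 10 genes of origin licensing, 6 of helicase activation and 8 of the polymerases and primase. A further 10 encode the sliding clamp, its loader, single-strand binding and lagging-strand enzymes. The remaining 12 comprise 5 genes of nucleotide supply, 2 of chromatin assembly and 5 of the E2F and cyclin E switch. All 46 symbols were found, and all 46 reached the minimum FPKM (fragments scaled for exon length and library depth) of 1 in at least 2 libraries, as 11922 genes of the table did.

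RNA was sequenced from naive CD4 T cells of C57BL/6 mice after activation through CD3 and CD28 for 24 h. The question set by the design was how retinoic acid (RA), a vitamin A derivative that acts through nuclear receptors such as RARα, alters this response in mice with changed RARα. The 6 groups of 2 libraries were RARα TG with 10 nM RA, RARα TG without RA, RARα KO with RA, RARα KO without RA, wild type (WT) with RA and WT without RA. Serum for every group, WT included, was charcoal-stripped to deplete its retinoids. All groups shared a mix of Th17-type cytokines, namely 20 ng/mL IL-6, 10 ng/mL of IL-23, IL-21 and IL-1β, and 5 ng/mL of TGF-β1 and TNFα. All were also cultured with 10 µg/mL of the blocking antibodies to IL-4 and to IFNγ. The sources used here do not give the KO allele, the TG construct with the cells that express it, or the age of the mice. The labels do not state whether the 2 libraries of a group came from separate mice. In both TG groups 1 library had Xist at 63.1 FPKM or more and the Y-linked Ddx3y at 0, while the other had Xist at or near 0 and Ddx3y at 17.3 FPKM or more, so those came from different mice. The spread between libraries was estimated for each gene over all 6 groups together. In KO and WT that spread may be technical, and the p-values of every genotype draw on it.

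Replication starts in stages that the cell cycle keeps apart. In G1 the origin recognition complex, with Cdc6 and Cdt1, loads the Mcm2-7 ring onto DNA as an inactive double hexamer, and in S phase kinases recruit Cdc45 and the GINS complex to turn it into the moving CMG helicase. Polymerases alpha, delta and epsilon then copy the strands, tethered by the PCNA clamp, while E2F transcription factors, released from RB proteins by cyclin-dependent kinases, drive many of these genes at the G1 to S transition. Naive T cells are quiescent, and activation through CD3 and CD28 brings them into this programme before their first division.

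The depth behind the values, worked out from the spacing of values in weakly expressed genes, was 16289969 to 25534588 reads per library. The 8 CD4 T cell markers summed to 766 to 1167 FPKM in every library and the 2 CD8 markers to 1.55 to 4.18 FPKM. Rara, the gene of RARα, stood at 126 and 119 FPKM in TG with RA and 72.8 and 63.3 FPKM in TG without RA. In KO it was 16.8 and 17.6 FPKM with RA and 19.5 and 19.3 FPKM without RA, against 12.3 and 14.2 FPKM in WT with RA and 16.5 and 18.9 FPKM in WT without RA. Rara was thus no lower in the libraries labelled KO, so this value per gene does not check the label. Xist was at 47.4 to 72.7 FPKM in the 4 libraries labelled KO and in replicate 2 of both TG groups and at no more than 0.00332 FPKM in the others, so that label genotype and sex cannot be told apart between KO and WT.

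Each difference below is a log2 fold change of FPKM + 1 with its standard error (SE), RA over no RA unless said otherwise. It was tested with limma on all 11922 genes, with Benjamini-Hochberg adjusted p-values and a threshold of 0.05. A gene is said to have risen or fallen only where it passed that threshold. These are bulk samples, in which fewer cells in S phase and less RNA per cell cannot be told apart.

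With RA, 6 of 10 licensing genes and 4 of 8 polymerase and primase genes fell in TG cells, while the licensing gene Mcm6, the polymerase gene Pole2 and the helicase gene Gins1 rose. In TG, 14 of 46 members fell with RA, 3 rose and 29 did not pass. These counts are 30.4% and 6.52% of the members, against 19.4% of all genes tested that fell and 19.7% that rose. The median member differed by -0.14 on the log2 scale in TG, beside -0.02 for all genes, and 37 of 46 differences were negative. An unadjusted p under 0.05 in limma was found in TG for 21 of 46 members and for 5680 of 11922 genes tested. Both TG libraries with RA lay below both without RA for 34 members, 73.9% of them, against 37.6% of all genes, and above for 5 members, against 33.5% of all genes. In KO, 0 members passed in either direction in limma, where 0.134% of all genes rose and 0.00839% fell. Limma voom on reads recovered from FPKM also gave 0 there. In KO 2 members had an unadjusted p under 0.05 in limma, as did 1280 of 11922 genes tested. In WT, 1 member rose and 0 fell, where 6.67% of all genes rose and 3.47% fell. The unadjusted p in WT was under 0.05 for 7 members and 3077 of all genes tested. The medians of the members were -0.03 in KO and -0.05 in WT, beside 0.01 and 0.02 for all genes. As in TG, most differences were negative, for 32 of 46 members in KO and 31 in WT. Both libraries with RA lay below both without RA for 6 members in KO, against 18.2% of all genes, and for 11 in WT, against 22.8%. They lay above for 2 members in KO, against 24.1% of all genes, and for 3 in WT, against 31%. The differences were small: in TG the 95% interval lay within a 1.5-fold change either way for 42 of 46 members, in KO for 45 and in WT for 44. The count of 17 members called in TG rested on all 4 libraries, since it came to 10 without TG without RA replicate 1 and 6 without its replicate 2. It came to 5 without TG with RA replicate 1 and 9 without its replicate 2, and to 11 when only the 4 TG libraries were fitted.

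**Figure D1:**
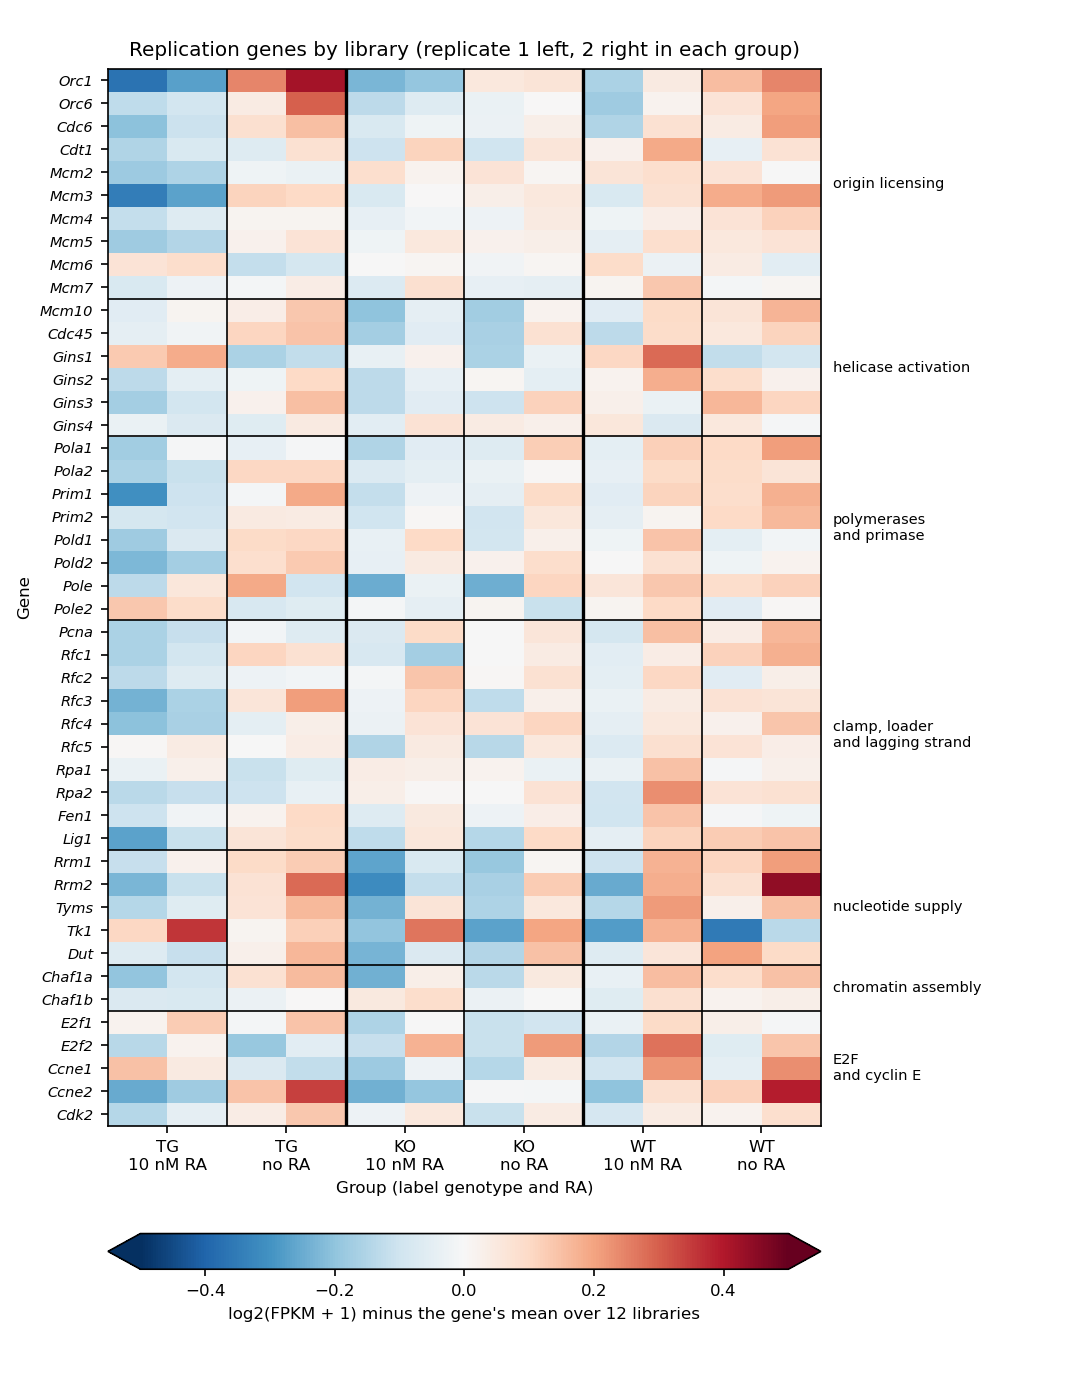
Difference of each of the 46 members in each library from that gene's mean over the 12 libraries, as colour on the log2(FPKM + 1) scale, with genes in rows by role and libraries in columns by group. The 2 columns of TG with RA are low in Orc1, Mcm3, Pold2 and Ccne2 and high in Mcm6, Gins1 and Pole2.

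**Figure D2:**
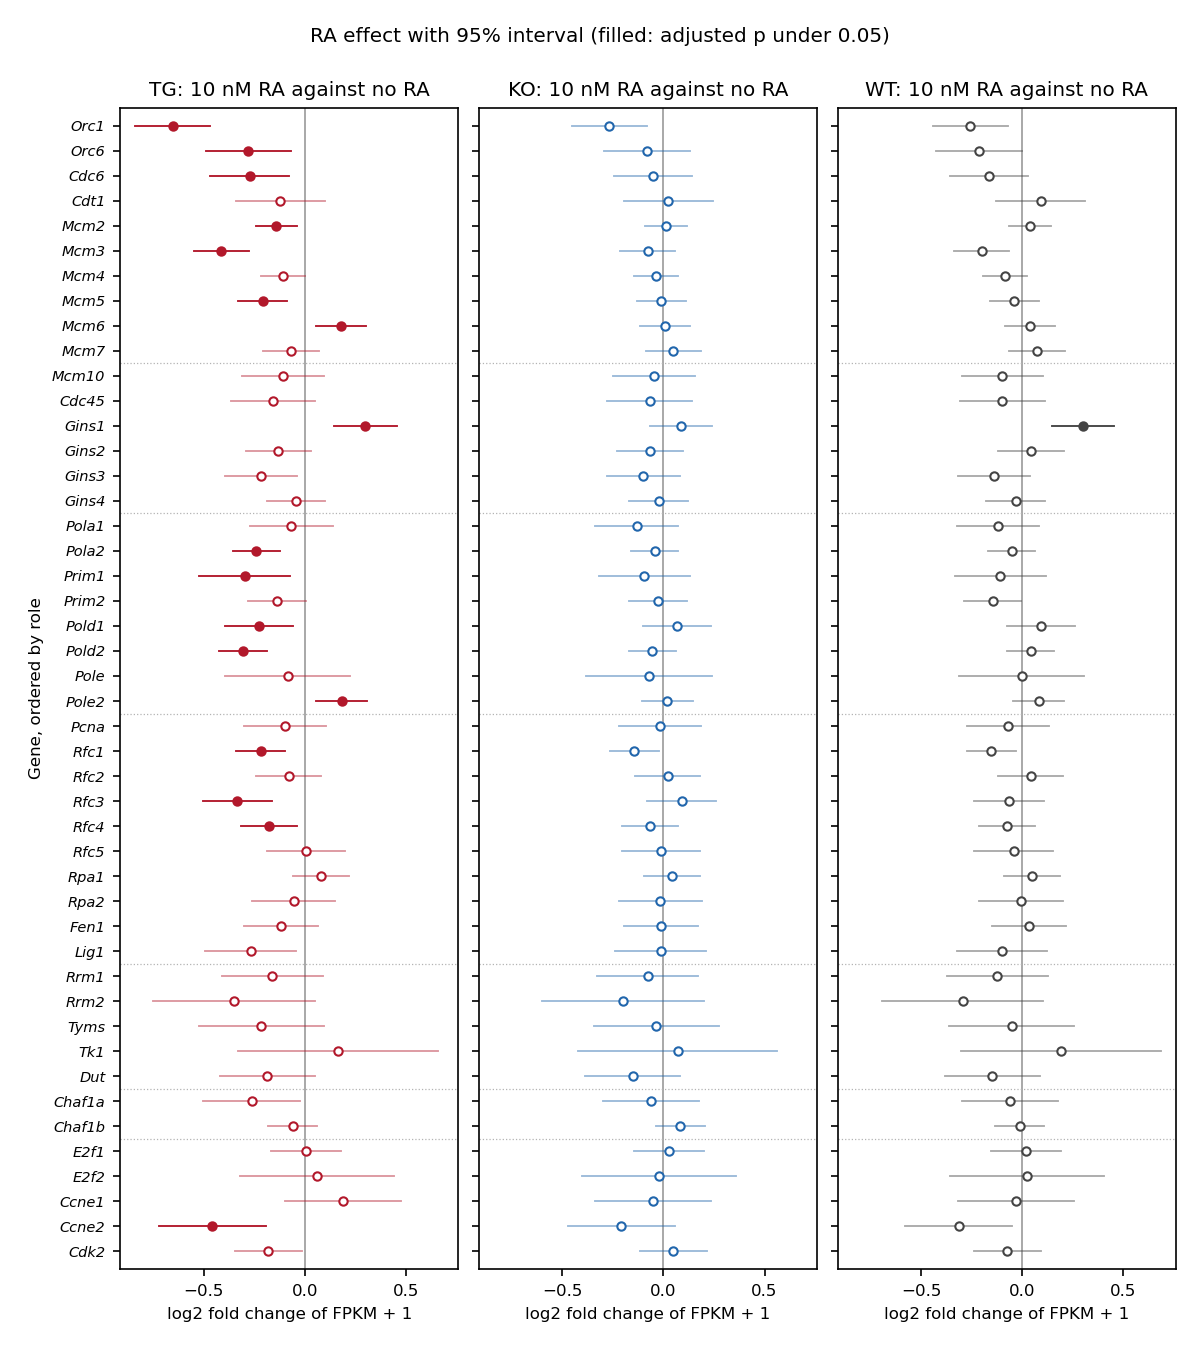
Log2 fold change with RA for each member in TG, KO and WT, with bars for the 95% interval, filled where the adjusted p passed 0.05. In TG 14 members are filled below 0 and 3 above it, in KO 0 are filled, and in WT Gins1 alone is filled.

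Markers of other cells that could be in the sort also differed with RA in TG. Over all genes tested, both TG libraries with RA lay above both without RA for 33.5% and below for 37.6%. The 10 B cell markers summed to 111.5 and 110.8 FPKM in TG with RA, against 32.3 and 35.2 FPKM in TG without RA, and 6 of the 10 lay above while 0 lay below. Most of that sum was Ighm. Cd79b, a part of the B cell receptor, stood at 3.70 and 5.31 FPKM in TG with RA, against 0.814 and 1.09 FPKM in TG without RA, and Pax5, a B cell transcription factor, at 0.377 and 0.564 FPKM in TG with RA, against 0.464 and 0.708 FPKM in TG without RA. The 2 CD8 T cell markers summed to 4.18 and 3.34 FPKM in TG with RA, against 2.01 and 2.64 FPKM in TG without RA, and both lay above. The 4 NK cell markers summed to 33.7 and 32.1 FPKM in TG with RA, against 0.812 and 1.54 FPKM in TG without RA. Nearly all of this was Nkg7, a granule gene that cytotoxic T cells also carry, 2 of the 4 lay above, and the other 3 were at most 0.179 FPKM in TG. Nkg7 also rose with RA in WT, with a difference of 1.48, and its KO difference of 0.60 did not pass. The 6 macrophage and monocyte markers summed to 3.999 and 5.98 FPKM in TG with RA, against 3.66 and 6.05 FPKM in TG without RA. Of these 6, 2 (Csf1r and Adgre1) lay above and 1 (Cd68) below. The 6 dendritic cell and class II markers summed to 32.1 and 42.9 FPKM in TG with RA, against 27.4 and 43.7 FPKM in TG without RA. Of these 6, 1 lay above and 1 below. The one above was Itgax, the integrin CD11c, at 1.202 and 1.76 FPKM in TG with RA, against 0.0317 and 0.139 FPKM in TG without RA, and it passed the test (adjusted p = 0.0066). The part of these cells in the members' differences was not tested.

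Of the 10 licensing genes, 6 fell with RA in TG, 1 rose and 3 did not pass. Orc1 (ENSMUSG00000028587, chr4:108579423-108614833), the ATPase subunit of the origin recognition complex that is made anew before each S phase, had the lowest difference of all 46 members. It stood at 15.6 and 16.8 FPKM in TG with RA, against 24.4 and 27.7 FPKM in TG without RA. Its other values were 17.4 and 17.8 FPKM in KO with RA, against 21.3 and 21.4 FPKM in KO without RA, and 18.3 and 21.1 FPKM in WT with RA, against 22.9 and 24.5 FPKM in WT without RA. In each genotype both libraries with RA were below both without RA, and the gap was widest in TG. The difference was -0.65 ± 0.08 in TG (adjusted p = 0.00037), where Orc1 fell, while the values of -0.27 ± 0.08 in KO (adjusted p = 0.28) and -0.26 ± 0.08 in WT (adjusted p = 0.085) did not pass. The TG effect minus the WT effect was -0.39 ± 0.11 (adjusted p = 0.081), which did not pass either. An opposite-strand gene, Gm12743, covers 10.8% of the exon length of Orc1, and the strand setting of the counting is not given in the sources used here.

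Cdc6, the loader ATPase that joins Orc1 on the origin, stood at 28.9 and 31.04 FPKM in TG with RA, against 35.5 and 37.3 FPKM in TG without RA. Elsewhere it stood at 31.7 and 33.0 FPKM in KO with RA, against 32.8 and 34.2 FPKM in KO without RA, and 30.1 and 35.3 FPKM in WT with RA, against 34.5 and 38.9 FPKM in WT without RA. The groups were apart in TG and overlapped in KO and in WT. Cdc6 fell in TG, with a difference of -0.27 ± 0.08 (adjusted p = 0.032), while the KO and WT groups differed by -0.05 ± 0.08 and -0.16 ± 0.08 without passing. Orc6, another origin recognition subunit, stood at 50.8 and 52.1 FPKM in TG with RA, against 57.1 and 68.5 FPKM in TG without RA, with its KO and WT libraries between 49.0 and 63.8 FPKM. It fell in TG, with a difference of -0.28 ± 0.09 (adjusted p = 0.043). The calls were lost for Cdc6 without any 1 of the 4 libraries (-0.32 to -0.22) and for Orc6 without TG without RA replicate 2 (-0.15), TG with RA replicate 1 (-0.26) or TG with RA replicate 2 (-0.30). With no filter on low values both calls were lost, and that of Orc6 also with only the TG libraries fitted. Cdt1, the partner of Cdc6 that geminin blocks, stood at 37.6 and 39.6 FPKM in TG with RA, against 40.02 and 44.2 FPKM in TG without RA. The KO and WT libraries had 38.9 and 45.3 FPKM in KO with RA, against 38.9 and 43.7 FPKM in KO without RA, and 42.5 and 47.9 FPKM in WT with RA, against 40.6 and 44.1 FPKM in WT without RA. The TG groups did not overlap, those of KO and of WT did, and the difference of -0.12 ± 0.10 did not pass (adjusted p = 0.36), with an interval of -0.34 to 0.10.

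Of the 6 subunits of the Mcm2-7 ring, Mcm2, Mcm3 and Mcm5 fell with RA in TG, Mcm6 rose, and Mcm4 and Mcm7 did not pass. Mcm3 (ENSMUSG00000041859, chr1:20802968-20820312) stood at 194 and 205 FPKM in TG with RA, against 266 and 264 FPKM in TG without RA. In the other genotypes it stood at 234 and 247 FPKM in KO with RA, against 252 and 256 FPKM in KO without RA, and 234 and 260.3 FPKM in WT with RA, against 281 and 286 FPKM in WT without RA. Both libraries with RA were lower in every genotype, and the gap was widest in TG. Mcm3 fell in TG, with a difference of -0.41 ± 0.06 (adjusted p = 0.00084), and the differences of -0.08 ± 0.06 in KO (adjusted p = 0.71) and -0.20 ± 0.06 in WT (adjusted p = 0.072) did not pass. Mcm5 stood at 149 and 152 FPKM in TG with RA, against 171 and 177 FPKM in TG without RA. In KO and WT it was at 166 and 175 FPKM in KO with RA, against 171 and 172 FPKM in KO without RA, and 164 and 179 FPKM in WT with RA, against 175 and 177 FPKM in WT without RA. The TG groups alone were clear of each other among these pairs, and Mcm5 fell there, with a difference of -0.21 ± 0.05 (adjusted p = 0.015). Mcm2, the subunit that also holds histones at the fork, stood at 68.6 and 69.9 FPKM in TG with RA, against 76.9 and 76.1 FPKM in TG without RA. It stood at 82.7 and 79.0 FPKM in KO with RA, against 81.7 and 78.5 FPKM in KO without RA, and 81.5 and 82.6 FPKM in WT with RA, against 81.9 and 78.0 FPKM in WT without RA. The 2 TG libraries with RA were the lowest of all 12, and Mcm2 fell there with a difference of -0.14 ± 0.04 (adjusted p = 0.035), beside 0.01 ± 0.04 in KO and 0.04 ± 0.04 in WT.

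Mcm6 (ENSMUSG00000026355, chr1:128331590-128359664) is the subunit that rose. It stood at 272 and 275 FPKM in TG with RA, against 238 and 244 FPKM in TG without RA. Outside TG it was at 259 and 261 FPKM in KO with RA, against 256 and 261 FPKM in KO without RA, and 276 and 254 FPKM in WT with RA, against 267 and 249.7 FPKM in WT without RA, and in both genotypes the groups overlapped. Mcm6 rose in TG by 0.18 ± 0.05 (adjusted p = 0.029), but missed the threshold after upper-quartile scaling, at 0.16 (adjusted p = 0.051). The median difference of all genes with RA in TG was -0.021 in the main fit and -0.035 under that scaling. Mcm4 stood at 206 and 214 FPKM in TG with RA, against 226 and 226 FPKM in TG without RA and Mcm7 at 94.4 and 97.6 FPKM in TG with RA, against 98.9 and 102 FPKM in TG without RA, and their differences of -0.11 ± 0.05 and -0.07 ± 0.06 did not pass. The calls were lost for Mcm2 without any 1 of the 4 libraries (-0.15 to -0.13), for Mcm5 without TG without RA replicate 2 (-0.18) or TG with RA replicate 1 (-0.19) and for Mcm6 without any 1 of the 4 libraries (0.16 to 0.20). With only the TG libraries fitted these calls were lost too, and with no filter on low values that of Mcm6 was lost. Per length, the ring's subunit RNAs were unequal in every group. In TG with RA the highest was Mcm6 at a mean of 274 FPKM and the lowest Mcm2 at 69.3, a ratio of 3.95, while in WT without RA the highest was Mcm3 at 284 and the lowest Mcm2 at 79.9, a ratio of 3.55.

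**Figure D3:**
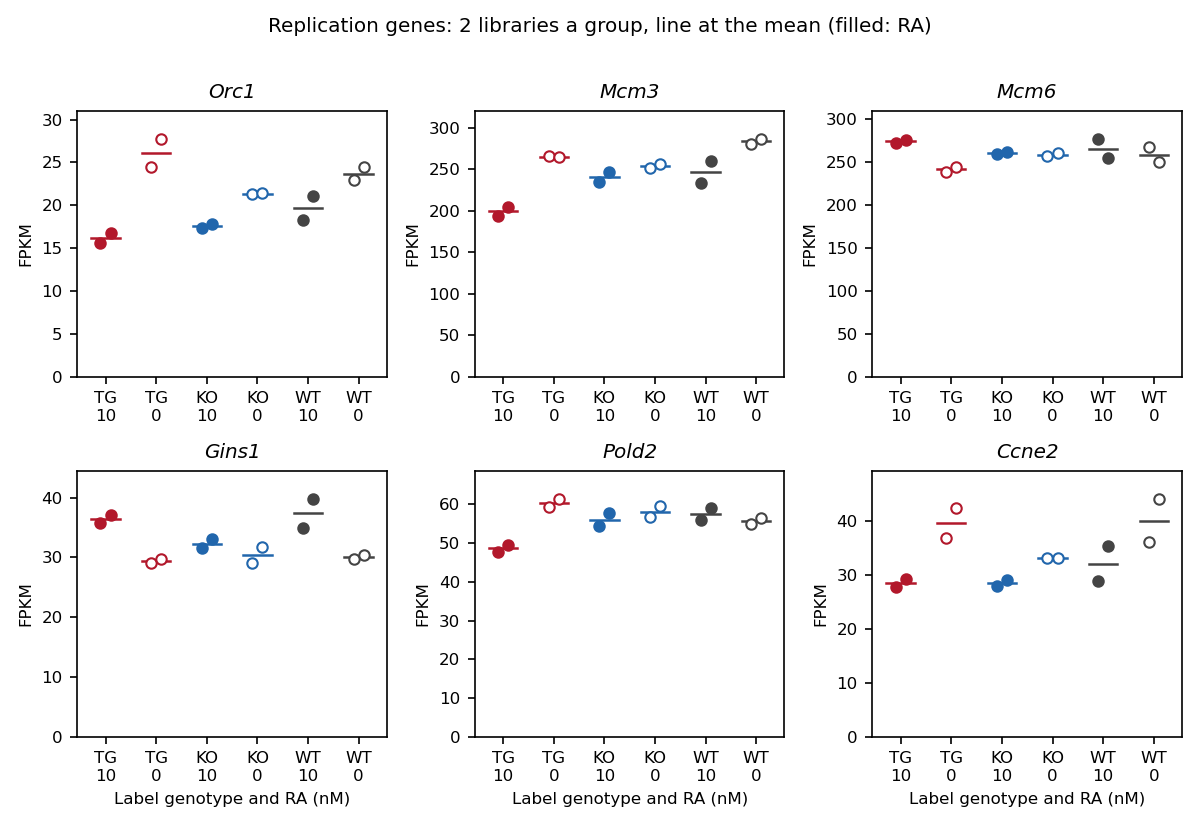
FPKM in each of the 12 libraries of Orc1, Mcm3, Mcm6, Gins1, Pold2 and Ccne2, with a line at the mean of each group of 2, TG to the left and WT to the right, filled points with RA. Orc1, Mcm3 and Pold2 are lowest in TG with RA, Mcm6 is high there, Gins1 is high with RA in TG and WT, and Ccne2 is lower with RA in each genotype.

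E2F sites are short words that many replication promoters hold close to the start of the gene. The promoter windows of RefSeq on GRCm38.p6, from 250 bases before to 50 after a start, were searched on both strands for the 4 words TTTCCCGC, TTTCGCGC, TTTGCCGC and TTTGGCGC, with overlapping matches counted separately. Of the 46 members, 38 had a window, 44 windows in all, and 15 of the 38 genes (39.5%) held at least 1 word, against 704 of 27025 genes with a window (2.61%). By window the shares were 34.1% for members and 2.26% for all. The 8 members with no window in that set were Ccne2, Gins1, Gins2, Gins4, Mcm4, Pole, Prim2 and Rfc2. A word was present in 6 of the 13 members with a window that fell in TG (Orc1, Cdc6, Mcm3, Mcm5, Pold1 and Rfc3), in both that rose (Mcm6 and Pole2) and in 7 of the 23 that did not pass. The words are therefore found beside members that fell, rose and did not pass, which the following stretches show, each 5′ to 3′ on the strand of its gene with the matched words in capitals.
Orc1, chr4:108579414-108579443, + strand, ending 11 bases before the RefSeq start: gtttcggttagtgGCGCGAAAagttttctc
Cdc6, chr11:98907986-98908065, + strand: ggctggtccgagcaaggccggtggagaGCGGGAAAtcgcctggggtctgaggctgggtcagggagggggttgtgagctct
Mcm5, chr8:75109319-75109398, + strand, 2 words that overlap: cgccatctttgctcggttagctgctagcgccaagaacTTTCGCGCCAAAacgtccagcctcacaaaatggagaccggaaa
Mcm6, chr1:128359736-128359835, − strand, 2 overlapping words and 1 nearer the start: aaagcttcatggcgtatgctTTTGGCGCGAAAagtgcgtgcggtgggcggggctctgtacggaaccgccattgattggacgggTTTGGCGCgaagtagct
Pola1, chrX:93632241-93632320, − strand: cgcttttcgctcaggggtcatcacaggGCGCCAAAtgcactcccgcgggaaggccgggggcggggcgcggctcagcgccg
Orc1, Cdc6 and Mcm5 fell with RA in TG, Mcm6 rose and Pola1 did not pass. Mcm5 and Mcm6 hold the same 12 bases of overlapping words in opposite orientation. The part of the words or their orientation in the differences with RA was not tested. In GENCODE M21 the Orc1 stretch overlaps the first exon of 2 processed transcripts of Orc1, the Cdc6 stretch lies in an intron of 2 Cdc6 transcripts that start further upstream, and those of Mcm5, Mcm6 and Pola1 lie before the annotated start of their gene. A match is a description of letters and not a bound site.

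Of the 6 helicase activation genes, Gins1 rose with RA in TG and the other 5 did not pass. Gins1 (ENSMUSG00000027454, chr2:150905400-150931280) encodes a subunit of the GINS complex. It stood at 35.7 and 37.1 FPKM in TG with RA, against 29.0 and 29.7 FPKM in TG without RA. The other libraries gave 31.6 and 33.0 FPKM in KO with RA, against 29.0 and 31.7 FPKM in KO without RA, and 35.0 and 39.7 FPKM in WT with RA, against 29.8 and 30.4 FPKM in WT without RA. Every library with RA in TG and WT was above every library without RA there, while in KO the groups overlapped. Gins1 rose by 0.30 ± 0.07 in TG (adjusted p = 0.0078) and by 0.30 ± 0.07 in WT (adjusted p = 0.027), and its KO difference was 0.09 ± 0.07 (adjusted p = 0.71). It is the one member called in WT. The TG effect minus the WT effect was 0.00 ± 0.10 with an interval of -0.22 to 0.22, and the KO effect minus the WT effect was -0.21 ± 0.10 (adjusted p = 0.94). The WT call was lost without WT without RA replicate 1 (0.29), WT without RA replicate 2 (0.32) or WT with RA replicate 2 (0.21) and the TG call without TG with RA replicate 2 (0.27). The WT call was also lost with no filter on low values and with only the WT libraries fitted.

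The other GINS subunits did not pass. Gins2 stood at 17.5 and 18.6 FPKM in TG with RA, against 19.0 and 20.8 FPKM in TG without RA, Gins3 at 13.2 and 14.0 FPKM in TG with RA, against 15.2 and 16.7 FPKM in TG without RA and Gins4 at 65.1 and 63.3 FPKM in TG with RA, against 63.7 and 68.7 FPKM in TG without RA. Their differences in TG were -0.13 ± 0.07, -0.22 ± 0.08 and -0.04 ± 0.06, none of which passed, and 67.3% of the exon length of Gins2 is covered by the opposite-strand gene Gse1. Per length the 4 subunits ranged in WT without RA from Gins3 at a mean of 16.6 FPKM up to Gins4 at 67.7. Cdc45, which completes the CMG helicase, stood at 75.2 and 76.6 FPKM in TG with RA, against 83.7 and 85.8 FPKM in TG without RA. Its KO and WT values were 68.9 and 74.5 FPKM in KO with RA, against 69.2 and 81.8 FPKM in KO without RA, and 70.9 and 82.9 FPKM in WT with RA, against 80.6 and 83.8 FPKM in WT without RA. The TG groups were apart, those of KO and of WT overlapped, and the TG difference of -0.16 ± 0.09 did not pass (adjusted p = 0.21). Mcm10, which helps the assembled helicase start to move, stood at 21.3 and 22.4 FPKM in TG with RA, against 22.8 and 24.5 FPKM in TG without RA. Elsewhere it stood at 19.2 and 21.5 FPKM in KO with RA, against 19.6 and 22.5 FPKM in KO without RA, and 21.3 and 23.8 FPKM in WT with RA, against 23.3 and 25.1 FPKM in WT without RA. The groups were apart in TG and overlapped in KO and in WT, and the TG difference of -0.11 ± 0.09 did not pass (adjusted p = 0.38).

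Of the 8 polymerase and primase genes, 4 fell with RA in TG, 1 rose and 3 did not pass. Pold2 (ENSMUSG00000020471, chr11:5872180-5878292), the second subunit of polymerase delta, stood at 47.8 and 49.6 FPKM in TG with RA, against 59.3 and 61.3 FPKM in TG without RA. The KO and WT libraries had 54.3 and 57.7 FPKM in KO with RA, against 56.8 and 59.5 FPKM in KO without RA, and 55.9 and 59.1 FPKM in WT with RA, against 55.0 and 56.6 FPKM in WT without RA. The 2 TG libraries with RA were the lowest of the 12, and those without RA were among the 3 highest. Pold2 fell by 0.30 ± 0.05 in TG (adjusted p = 0.0018), beside -0.05 ± 0.05 in KO (adjusted p = 0.77) and 0.04 ± 0.05 in WT (adjusted p = 0.67). It was the one member whose RA effect in TG minus that in WT passed, at -0.35 ± 0.07 (adjusted p = 0.024). That difference was lost without WT without RA replicate 1 (-0.33), WT without RA replicate 2 (-0.37), WT with RA replicate 2 (-0.31), TG without RA replicate 2 (-0.32), TG with RA replicate 1 (-0.32) or TG with RA replicate 2 (-0.37).

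Pold1, the catalytic subunit of polymerase delta, stood at 40.8 and 43.9 FPKM in TG with RA, against 49.5 and 49.8 FPKM in TG without RA. In the other genotypes it stood at 45.1 and 49.7 FPKM in KO with RA, against 43.4 and 47.1 FPKM in KO without RA, and 45.7 and 51.2 FPKM in WT with RA, against 44.7 and 45.9 FPKM in WT without RA. The groups overlapped in KO and in WT but not in TG. Pold1 fell in TG, with a difference of -0.22 ± 0.07 (adjusted p = 0.039), while the values in KO and WT were 0.07 ± 0.07 and 0.09 ± 0.07. Pola2, the accessory subunit of the polymerase alpha and primase complex, fell by 0.24 ± 0.05 in TG (adjusted p = 0.0058), where it stood at 58.7 and 60.6 FPKM in TG with RA, against 70.5 and 70.7 FPKM in TG without RA. Prim1, the small subunit that makes the RNA primer, stood at 38.0 and 43.9 FPKM in TG with RA, against 47.0 and 54.0 FPKM in TG without RA. In KO and WT it was at 43.4 and 46.4 FPKM in KO with RA, against 45.7 and 50.5 FPKM in KO without RA, and 45.4 and 51.1 FPKM in WT with RA, against 50.3 and 53.6 FPKM in WT without RA. The groups were apart in TG and overlapped in KO and in WT, and Prim1 fell in TG with a difference of -0.30 ± 0.10 (adjusted p = 0.043). Pole2, the second subunit of polymerase epsilon, rose in TG by 0.18 ± 0.06 (adjusted p = 0.030), where it stood at 25.4 and 24.7 FPKM in TG with RA, against 21.8 and 22.1 FPKM in TG without RA, and 8.50% of its exon length is shared with the same-strand gene Gm49384. Pole, the catalytic subunit of polymerase epsilon, stood at 22.3 and 25.6 FPKM in TG with RA, against 28.1 and 22.8 FPKM in TG without RA. It stood at 20.5 and 23.9 FPKM in KO with RA, against 20.6 and 26.5 FPKM in KO without RA, and 25.6 and 27.02 FPKM in WT with RA, against 26.1 and 26.6 FPKM in WT without RA, and the TG groups overlapped, with a difference of -0.08 ± 0.14 that did not pass. Pola1 and Prim2 differed by -0.07 ± 0.09 and -0.14 ± 0.06 in TG and did not pass. The calls were lost for Pold1 without any 1 of the 4 libraries (-0.28 to -0.17), for Prim1 without TG without RA replicate 2 (-0.20) or TG with RA replicate 1 (-0.19) and for Pole2 without any 1 of the 4 libraries (0.16 to 0.20). With only the TG libraries fitted those of Prim1 and Pole2 were lost, and with no filter on low values those of Pold1 and Prim1.

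Of the 10 genes of the clamp, its loader and the lagging strand, 3 fell with RA in TG and 7 did not pass, and all 3 that fell are subunits of replication factor C, which opens the clamp ring. Rfc3 stood at 20.5 and 21.7 FPKM in TG with RA, against 25.5 and 28.3 FPKM in TG without RA. Outside TG it was at 23.9 and 26.4 FPKM in KO with RA, against 22.3 and 24.9 FPKM in KO without RA, and 23.8 and 25.1 FPKM in WT with RA, against 25.7 and 25.6 FPKM in WT without RA. In TG the groups were clear of each other, in KO they overlapped with RA on the higher side, and in WT both libraries with RA were below. Rfc3 fell in TG, with a difference of -0.33 ± 0.08 (adjusted p = 0.0083), beside 0.09 ± 0.08 in KO and -0.06 ± 0.08 in WT. Rfc1, the large subunit, stood at 41.4 and 43.4 FPKM in TG with RA, against 50.02 and 48.9 FPKM in TG without RA and fell by 0.22 ± 0.05 (adjusted p = 0.012). Rfc4 stood at 53.2 and 54.9 FPKM in TG with RA, against 59.5 and 62.9 FPKM in TG without RA and fell by 0.18 ± 0.06 (adjusted p = 0.049), while Eif4a2 on the opposite strand covers 12.7% of its exon length. The differences of Rfc2 and Rfc5 were -0.08 ± 0.07 and 0.01 ± 0.09, without passing. The calls were lost for Rfc3 without TG without RA replicate 2 (-0.26) or TG with RA replicate 1 (-0.29), for Rfc1 without TG without RA replicate 1 (-0.20) or TG with RA replicate 1 (-0.19) and for Rfc4 without any 1 of the 4 libraries (-0.21 to -0.14). That of Rfc4 was also lost with no filter on low values, with only the TG libraries fitted and in limma voom.

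Pcna, the clamp itself and a common marker of S phase, stood at 144 and 148 FPKM in TG with RA, against 159 and 154 FPKM in TG without RA. Its KO and WT values were 153 and 172 FPKM in KO with RA, against 160.5 and 168 FPKM in KO without RA, and 151 and 178 FPKM in WT with RA, against 165 and 180.3 FPKM in WT without RA. The KO and WT groups overlapped, the TG groups did not, and the difference in TG was -0.10 ± 0.09 with an interval of -0.30 to 0.10, which did not pass (adjusted p = 0.42). A pseudogene copy, Pcna-ps2, was at 0.887 to 2.10 FPKM. Fen1, the nuclease that trims lagging-strand flaps, stood at 88.0 and 93.4 FPKM in TG with RA, against 95.7 and 101 FPKM in TG without RA. Elsewhere it stood at 90.4 and 97.8 FPKM in KO with RA, against 92.9 and 96.8 FPKM in KO without RA, and 88.1 and 104 FPKM in WT with RA, against 94.1 and 93.1 FPKM in WT without RA. The groups overlapped outside TG, and the TG difference of -0.12 ± 0.08 did not pass. The opposite-strand gene Gm10143 covers 78.8% of the exon length of Fen1, which leaves its value uncertain. Lig1, the ligase that seals Okazaki fragments, stood at 90.5 and 101 FPKM in TG with RA, against 114 and 116 FPKM in TG without RA. The KO and WT libraries had 99.8 and 113 FPKM in KO with RA, against 98.7 and 117 FPKM in KO without RA, and 106 and 118 FPKM in WT with RA, against 119 and 120.5 FPKM in WT without RA. Libraries with RA were the lower ones in TG and WT, and overlapped with those without RA in KO. The TG difference of -0.27 ± 0.10 missed the threshold in limma (adjusted p = 0.059) and passed in limma voom. Rpa1 and Rpa2, of the single-strand binding complex, differed in TG by 0.08 ± 0.06 and -0.05 ± 0.09 and did not pass.

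None of the 5 nucleotide supply genes and neither of the 2 chromatin assembly genes passed with RA in any genotype in the main limma fit, which leaves out the replicate number, or in limma voom. At an unadjusted p under 0.05 in the main fit there were 0 nucleotide supply genes in each genotype, and of the chromatin assembly genes 1 in TG, 0 in KO and 0 in WT. Over all 11922 genes tested there were 5680 in TG, 1280 in KO and 3077 in WT. The median differences in TG of the nucleotide supply and chromatin assembly genes were -0.19 and -0.16. Rrm2, the limiting subunit of ribonucleotide reductase, stood at 171 and 185 FPKM in TG with RA, against 211 and 244 FPKM in TG without RA. In the other genotypes it stood at 161 and 185 FPKM in KO with RA, against 179 and 219 FPKM in KO without RA, and 168 and 227 FPKM in WT with RA, against 211 and 273 FPKM in WT without RA. The TG groups did not overlap and the KO and WT groups did, with a wide spread between replicates, replicate 2 being the higher in every group. With the replicate number fitted as a block, Rrm2 was called in WT. The differences were -0.35 ± 0.18 in TG (adjusted p = 0.15), -0.20 ± 0.18 in KO and -0.30 ± 0.18 in WT, with a TG interval of -0.75 to 0.05, so that a fall by the size seen for Orc1 lies within it. Rrm1, the large subunit of the same enzyme, stood at 66.9 and 73.6 FPKM in TG with RA, against 77.5 and 79.4 FPKM in TG without RA. In KO and WT it was at 60.2 and 68.8 FPKM in KO with RA, against 63.4 and 73.0 FPKM in KO without RA, and 67.5 and 81.9 FPKM in WT with RA, against 78.2 and 84.1 FPKM in WT without RA. The groups were apart in TG alone, with a difference of -0.16 ± 0.11 that did not pass.

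Tyms, which makes thymidylate, stood at 20.5 and 21.8 FPKM in TG with RA, against 23.9 and 25.6 FPKM in TG without RA. It stood at 19.2 and 23.8 FPKM in KO with RA, against 20.4 and 23.7 FPKM in KO without RA, and 20.5 and 26.6 FPKM in WT with RA, against 23.2 and 25.4 FPKM in WT without RA. In TG alone the groups were clear of each other, with a difference of -0.22 ± 0.14 (adjusted p = 0.24). Tk1, thymidine kinase of the salvage route, stood at 7.56 and 9.22 FPKM in TG with RA, against 7.05 and 7.65 FPKM in TG without RA. Outside TG it was at 5.95 and 8.604 FPKM in KO with RA, against 5.63 and 8.14 FPKM in KO without RA, and 5.57 and 7.995 FPKM in WT with RA, against 5.24 and 6.27 FPKM in WT without RA. The groups overlapped in each genotype, with a difference in TG of 0.16 ± 0.22. Dut, which clears dUTP, stood at 111 and 107 FPKM in TG with RA, against 118 and 130.0 FPKM in TG without RA. Its KO and WT values were 98.5 and 110.1 FPKM in KO with RA, against 105 and 128 FPKM in KO without RA, and 111 and 121 FPKM in WT with RA, against 133 and 124 FPKM in WT without RA. Libraries with RA were the lower ones in TG and WT and overlapped with those without RA in KO, and the TG difference of -0.19 ± 0.10 did not pass (adjusted p = 0.19).

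Chaf1a and Chaf1b encode the large and middle subunits of chromatin assembly factor 1, which places histones behind the fork. Chaf1a stood at 45.2 and 48.6 FPKM in TG with RA, against 54.8 and 58.1 FPKM in TG without RA. Elsewhere it stood at 43.8 and 53.0 FPKM in KO with RA, against 47.2 and 53.7 FPKM in KO without RA, and 50.5 and 57.9 FPKM in WT with RA, against 55.3 and 57.5 FPKM in WT without RA. The groups overlapped in KO and WT and were apart in TG by -0.26 ± 0.10, which missed the threshold (adjusted p = 0.078), and the opposite-strand gene Ubxn6 covers 52.5% of the exon length. Chaf1b stood at 17.9 and 17.8 FPKM in TG with RA, against 18.4 and 18.9 FPKM in TG without RA. The KO and WT libraries had 19.5 and 20.1 FPKM in KO with RA, against 18.4 and 18.8 FPKM in KO without RA, and 18.0 and 20.0 FPKM in WT with RA, against 19.1 and 19.2 FPKM in WT without RA. Libraries with RA were lower in TG, higher in KO and on both sides in WT, and the TG difference of -0.06 ± 0.05 did not pass. The level of Chaf1a per length was above that of Chaf1b in each of the 12 libraries.

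Of the 5 genes of the E2F and cyclin E switch, Ccne2 fell with RA in TG and 4 did not pass. Ccne2 (ENSMUSG00000028212, chr4:11191351-11204779), a cyclin E that activates Cdk2 at the start of S phase, stood at 27.8 and 29.3 FPKM in TG with RA, against 36.8 and 42.4 FPKM in TG without RA. In the other genotypes it stood at 28.0 and 29.0 FPKM in KO with RA, against 33.1 and 33.1 FPKM in KO without RA, and 28.8 and 35.3 FPKM in WT with RA, against 36.1 and 44.0 FPKM in WT without RA. In each genotype both libraries with RA were below both without RA. Ccne2 fell by 0.46 ± 0.12 in TG (adjusted p = 0.014), while -0.21 ± 0.12 in KO (adjusted p = 0.56) and -0.31 ± 0.12 in WT (adjusted p = 0.13) did not pass, and the TG effect minus the WT effect was -0.14 ± 0.16 (adjusted p = 0.69). Its TG call was lost without TG without RA replicate 2 (-0.36) or TG with RA replicate 1 (-0.42), and Ints8 on the opposite strand covers 17.4% of its exon length.

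Ccne1, the other cyclin E, had a difference of the opposite sign that did not pass. It stood at 37.8 and 35.2 FPKM in TG with RA, against 32.4 and 31.3 FPKM in TG without RA. In KO and WT it was at 29.97 and 33.5 FPKM in KO with RA, against 30.8 and 35.1 FPKM in KO without RA, and 31.9 and 39.9 FPKM in WT with RA, against 33.0 and 40.3 FPKM in WT without RA. Both TG libraries with RA were above both without, by 0.19 ± 0.13 (adjusted p = 0.26), and the KO and WT groups overlapped. Cdk2, the kinase that both cyclins bind, stood at 26.9 and 28.9 FPKM in TG with RA, against 30.6 and 32.8 FPKM in TG without RA. It stood at 29.3 and 30.95 FPKM in KO with RA, against 27.5 and 30.8 FPKM in KO without RA, and 28.1 and 30.7 FPKM in WT with RA, against 30.2 and 31.7 FPKM in WT without RA. The groups were apart in TG alone, and the difference there of -0.18 ± 0.07 did not pass (adjusted p = 0.084). E2f1, an activator of the E2F family, stood at 24.5 and 26.6 FPKM in TG with RA, against 24.1 and 26.8 FPKM in TG without RA. Outside TG it was at 21.7 and 24.2 FPKM in KO with RA, against 22.4 and 22.6 FPKM in KO without RA, and 23.6 and 26.0 FPKM in WT with RA, against 24.8 and 24.1 FPKM in WT without RA. The groups with and without RA overlapped in each genotype, and the difference in TG was 0.01 ± 0.08 with an interval of -0.17 to 0.18. E2f2, another activator, stood at 18.8 and 21.003 FPKM in TG with RA, against 18.1 and 20.0 FPKM in TG without RA. Its KO and WT values were 19.1 and 23.5 FPKM in KO with RA, against 19.1 and 24.2 FPKM in KO without RA, and 18.6 and 25.3 FPKM in WT with RA, against 19.9 and 22.9 FPKM in WT without RA. Groups overlapped in each genotype, and the TG difference was 0.06 ± 0.17 with an interval of -0.32 to 0.44.

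Between genotypes the differences of single members were small without RA, though most were negative. In TG against WT without RA, 0 of 46 passed in limma, where 4.31% of all genes did. There 0 members had an unadjusted p under 0.05, against 2238 of 11922 genes tested. Their differences ran from -0.19 (Ccne1) to 0.31 (Tk1), and the interval lay within 1.5-fold for 45 of 46. In KO against WT, 0 members passed without RA, where 1.74% of all genes did, and 0 with RA, where 0.881% did. An unadjusted p under 0.05 in limma was found for 4 members without RA and 2 with RA, against 1808 and 1320 of 11922 genes. Limma voom likewise called 0 in these 3 comparisons. The differences in KO against WT ran from -0.28 (Rrm2) to 0.21 (Tk1) without RA and from -0.24 (Pole) to 0.09 (Tk1) with RA. They were negative for 36 of 46 members without RA and for 39 with RA, and for 32 in TG against WT without RA. The medians of the members were -0.093, -0.064 and -0.034 in that order, beside 0.014, 0.004 and 0.011 for all genes.

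With RA, 3 members were lower in TG than in WT and 0 were higher, where 4.64% of all genes were lower and 6.84% higher. These were Mcm2 at -0.24 ± 0.04 (adjusted p = 0.010), Mcm3 at -0.31 ± 0.06 (adjusted p = 0.013) and Pold2 at -0.24 ± 0.05 (adjusted p = 0.021), TG over WT. Both TG libraries lay below both WT libraries for 25 of 46 members, against 29.9% of all genes, and above for 0, against 24.5%. The calls were lost for Mcm2 without WT with RA replicate 2 (-0.23), TG with RA replicate 1 (-0.23) or TG with RA replicate 2 (-0.25), for Mcm3 without WT with RA replicate 2 (-0.23) or TG with RA replicate 1 (-0.27) and for Pold2 without WT with RA replicate 2 (-0.20), TG with RA replicate 1 (-0.21) or TG with RA replicate 2 (-0.26). All 3 were also lost with only the libraries compared. This comparison and that of RA in TG share the TG libraries with RA, so they are not separate evidence. By the RA effect itself, TG minus WT, 1 member (Pold2) passed and it was negative, where 2.73% of all genes were negative and 4.75% positive. By KO minus WT, 0 members passed in limma, where 0.00839% of all genes did, and limma voom called 0. An unadjusted p under 0.05 in limma was found there for 0 members, against 640 of 11922 genes tested.

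The members also differed between replicates. Of the 46, the value was higher in replicate 2 than in replicate 1 for 40 in TG with RA, 39 in TG without RA, 41 in KO with RA, 39 in KO without RA, 43 in WT with RA and 35 in WT without RA. Over all genes tested that share lay between 49.4 and 57.6%. The summed FPKM of the 46 was 2819 and 2939 in TG with RA, against 3132 and 3261 in TG without RA. It was 2903 and 3106 in KO with RA, against 2993 and 3198 in KO without RA. For WT it came to 2985 and 3310 with RA, against 3237 and 3367 in WT without RA. The groups were apart in TG and overlapped in KO and WT. Dendritic cell and class II markers were also higher in replicate 2 of every group, most so in WT, at 26.0 and 164.7 FPKM with RA and 23.7 and 156.9 FPKM without RA, and their part in this split was not tested.

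Other genes of the programme were taken from lists by role, and up to 3 called genes of each list are named, those with the smallest p in TG. Of 19 further nucleotide synthesis genes, 12 fell with RA in TG, 1 rose and 6 did not pass, with a median of -0.30. Over all genes tested, 19.4% fell and 19.7% rose in TG. Nme1, a nucleoside diphosphate kinase, stood at 39.4 and 37.7 FPKM in TG with RA, against 57.2 and 60.6 FPKM in TG without RA. Elsewhere it stood at 71.1 and 65.4 FPKM in KO with RA, against 76.1 and 71.2 FPKM in KO without RA, and 56.4 and 58.5 FPKM in WT with RA, against 66.3 and 61.9 FPKM in WT without RA. The 2 TG libraries with RA were below all the others, Nme1 fell by 0.60 ± 0.06 (adjusted p = 0.00014), and the TG effect minus the WT effect was -0.44 ± 0.09 (adjusted p = 0.020). Shmt1, which feeds one-carbon units to thymidylate synthesis, stood at 39.0 and 39.3 FPKM in TG with RA, against 57.1 and 61.1 FPKM in TG without RA and fell by 0.58 ± 0.06 (adjusted p = 0.00017). In WT it fell by 0.25 ± 0.06 (adjusted p = 0.042). The TG minus WT difference of Nme1 was lost without WT without RA replicate 2 (-0.39), WT with RA replicate 2 (-0.42), TG without RA replicate 2 (-0.40), TG with RA replicate 1 (-0.47) or TG with RA replicate 2 (-0.41). The WT call of Shmt1 was lost without WT without RA replicate 1 (-0.21), WT without RA replicate 2 (-0.28) or WT with RA replicate 1 (-0.19). It was also lost with no filter on low values and with only the WT libraries fitted. In WT 4 of the 19 fell and 0 rose, where 3.47% of all genes fell and 6.67% rose. In KO 0 passed in limma in this list or any of the other 7. At most 1 gene a list had an unadjusted p under 0.05 there, against 1280 of 11922 genes tested.

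Of 8 genes of replication-coupled chromatin, 5 fell with RA in TG and 1 rose, with a median of -0.33, and 2 fell in WT. Over all genes tested, 19.4% fell and 19.7% rose in TG, and 3.47% fell in WT. The WT calls, of Nasp and Hells, were lost without any 1 of the 4 WT libraries, with no filter and with only the libraries compared. Nasp, a histone chaperone, fell by 0.32 ± 0.06 in TG (adjusted p = 0.0032). Hells, a chromatin remodeller, and Uhrf1, which reads hemimethylated DNA behind the fork, fell too in TG, with differences of -0.43 ± 0.09 and -0.34 ± 0.07 (adjusted p = 0.0042 and adjusted p = 0.0067). Of 15 further licensing and firing genes, 3 fell and 0 rose in TG, where 19.4% of all genes fell, so that the share that fell, 20%, was near that of all genes. They were Mcmbp, a partner of the Mcm ring, at -0.26 ± 0.04, Orc2 at -0.21 ± 0.05 and the helicase gene Recql4 at -0.53 ± 0.14 (adjusted p = 0.0021, adjusted p = 0.0087 and adjusted p = 0.015). Of 16 further fork genes, 1 fell and 3 rose in TG. The risers were 18.8% of them, near the 19.7% of all genes that rose, and 19.4% of all genes fell. Pole3, a small subunit of polymerase epsilon, stood at 35.9 and 38.1 FPKM in TG with RA, against 51.7 and 53.3 FPKM in TG without RA and fell by 0.50 ± 0.05 (adjusted p = 0.00016). Timeless, of the fork protection complex, stood at 39.96 and 43.9 FPKM in TG with RA, against 32.3 and 32.3 FPKM in TG without RA and rose by 0.36 ± 0.08 (adjusted p = 0.0053), and the flap nuclease gene Dna2 rose by 0.34 ± 0.08 (adjusted p = 0.012). Of these, the TG calls were lost for Uhrf1 without TG with RA replicate 1 (-0.30), Orc2 without TG without RA replicate 2 (-0.16), Recql4 without TG without RA replicate 2 (-0.46) or TG with RA replicate 1 (-0.41) and Dna2 without TG without RA replicate 2 (0.31) or TG with RA replicate 2 (0.26). That of Orc2 was also lost with only the TG libraries fitted. Of 12 checkpoint and fork repair genes tested, the damage kinase gene Atm fell by 0.58 ± 0.18 (adjusted p = 0.030) and 11 did not pass, where 19.4% of all genes fell and 19.7% rose. The call of Atm was lost without TG without RA replicate 1 (-0.27), TG with RA replicate 1 (-0.48) or TG with RA replicate 2 (-0.67). It was also lost with no filter on low values and with only the TG libraries fitted. All 16 mitosis genes had negative differences in TG, with a median of -0.38, and 0 passed in limma. An unadjusted p under 0.05 was found for 3 of them, against 5680 of 11922 genes tested. Both TG libraries with RA lay below both without RA for 14 of the 16, against 37.6% of all genes. The differences were also negative for all 16 in WT, with a median of -0.20, and for 15 in KO, with a median of -0.16. There too 0 passed. Both libraries with RA lay below both without RA for 0 of the 16 in WT, against 22.8% of all genes. In KO this also held for 0, against 18.2%.

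The 4 largest differences in TG over all these lists were of genes of G1 control and inhibitors. Of 20 E2F, RB and G1 control genes, 6 fell and 5 rose with RA in TG, which is 30% and 25% of them, where 19.4% of all genes fell and 19.7% rose. Cdk6, a G1 kinase that acts with D cyclins on RB, stood at 7.46 and 8.41 FPKM in TG with RA, against 29.8 and 24.4 FPKM in TG without RA. The KO and WT libraries had 20.4 and 17.4 FPKM in KO with RA, against 24.9 and 22.6 FPKM in KO without RA, and 14.5 and 14.9 FPKM in WT with RA, against 22.3 and 23.8 FPKM in WT without RA. The 2 TG libraries with RA were the lowest of the 12 and those of WT with RA the next lowest. Cdk6 fell by 1.65 ± 0.11 in TG (adjusted p = 1.0e-05) and fell by 0.62 ± 0.11 in WT (adjusted p = 0.011), its KO difference of -0.31 ± 0.11 did not pass, and TG minus WT was -1.03 ± 0.15 (adjusted p = 0.0056). The WT call of Cdk6 was lost without WT without RA replicate 2 (-0.57) or WT with RA replicate 1 (-0.60). Ccnd1, cyclin D1, stood at 1.98 and 1.37 FPKM in TG with RA, against 0.0968 and 0.0499 FPKM in TG without RA, and at no more than 0.17 FPKM in KO and WT. It rose by 1.31 ± 0.16 in TG (adjusted p = 0.00028) on a scale that understates the change of so low a gene, and TG minus WT was 1.25 ± 0.22 (adjusted p = 0.012), a difference that did not pass with a pseudocount of 0.1 or in limma voom. Rbl2, an RB family member that represses E2F targets in quiescent cells, stood at 12.6 and 13.1 FPKM in TG with RA, against 8.80 and 7.72 FPKM in TG without RA and rose by 0.58 ± 0.07 (adjusted p = 0.00028).

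Of 4 inhibitors of cyclin-dependent kinases that were tested, 3 rose and 1 fell with RA in TG, where 19.7% of all genes rose and 19.4% fell. Cdkn2d, which binds Cdk4 and Cdk6, stood at 73.1 and 68.1 FPKM in TG with RA, against 24.0 and 24.9 FPKM in TG without RA. In the other genotypes it stood at 55.6 and 56.0 FPKM in KO with RA, against 45.0 and 47.0 FPKM in KO without RA, and 51.6 and 55.8 FPKM in WT with RA, against 36.7 and 37.8 FPKM in WT without RA. Every library with RA was above every library without RA in each genotype. Cdkn2d rose by 1.49 ± 0.05 in TG (adjusted p = 5.3e-07) and by 0.51 ± 0.05 in WT (adjusted p = 0.0012), and its KO difference of 0.27 ± 0.05 did not pass (adjusted p = 0.12). Without RA it was lower in TG than in WT, with a difference of -0.59 ± 0.05 (adjusted p = 0.0012), and the RA effect in TG minus that in WT was 0.98 ± 0.08 (adjusted p = 0.00025). With only the libraries compared, the call of Cdkn2d with RA in WT and that of TG against WT without RA were lost. Cdkn1b, which inhibits cyclin E with Cdk2, stood at 35.7 and 36.5 FPKM in TG with RA, against 28.5 and 29.6 FPKM in TG without RA and rose by 0.30 ± 0.07 (adjusted p = 0.0075). Cdkn1a, the inhibitor that p53 induces and that binds PCNA, stood at 23.7 and 22.8 FPKM in TG with RA, against 46.3 and 55.2 FPKM in TG without RA and fell by 1.09 ± 0.24 (adjusted p = 0.0071), a call lost without TG without RA replicate 2 (-0.97).

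**Figure D4:**
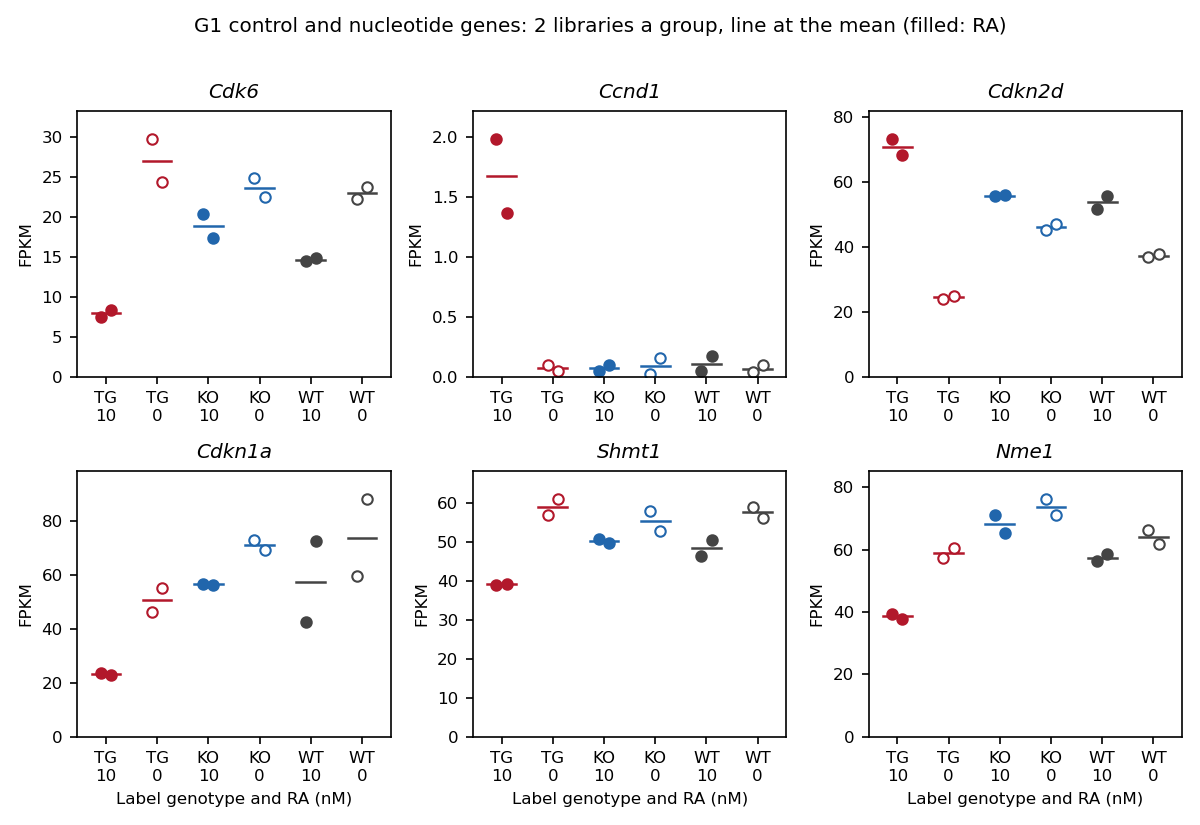
FPKM in each of the 12 libraries of Cdk6, Ccnd1, Cdkn2d, Cdkn1a, Shmt1 and Nme1, with a line at the mean of each group of 2, TG to the left and WT to the right, filled points with RA. Cdk6, Cdkn1a, Shmt1 and Nme1 are lowest in TG with RA, and Ccnd1 and Cdkn2d are highest there.

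**Figure D5:**
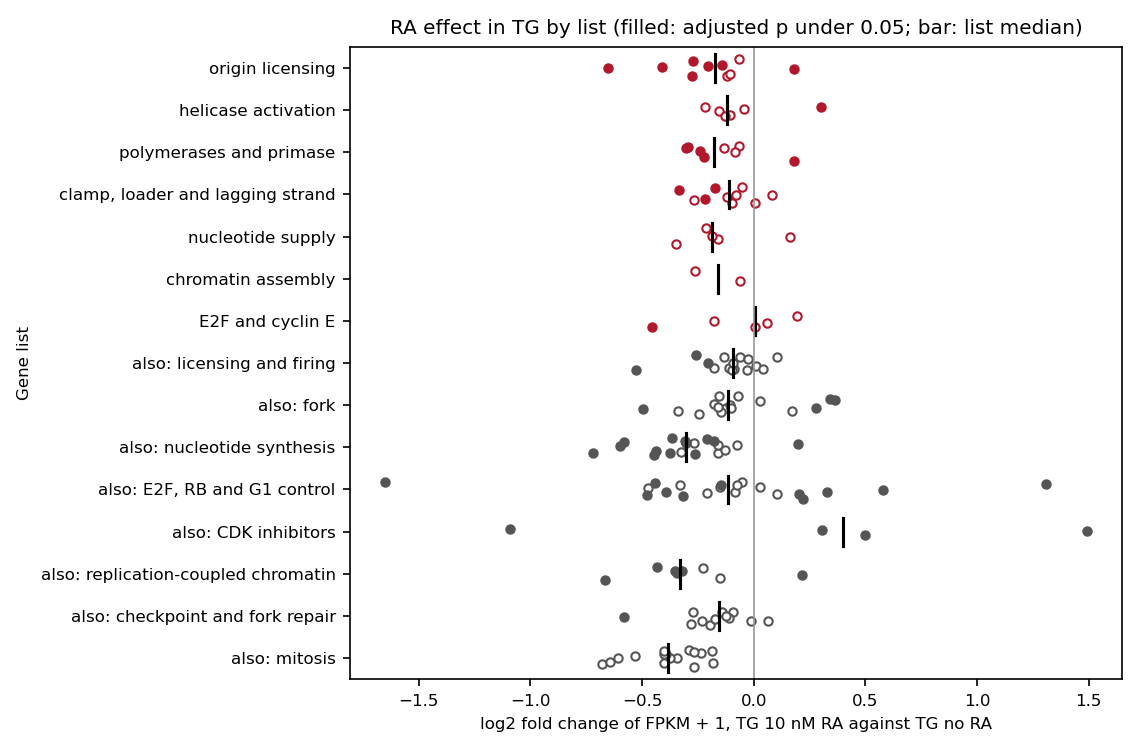
Log2 fold change with RA in TG for every tested gene of the 46 members by role and of the other lists, 1 point per gene, with the median of each list and filled points where the adjusted p passed 0.05. The mitosis, chromatin and nucleotide synthesis lists have medians of -0.38, -0.33 and -0.30 and the CDK inhibitors 0.40, while the members' roles lie between -0.19 and 0.01.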

How the data were processed

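The deposited values are FPKM per gene, made by the authors, in 1 table of 52635 genes and 12 libraries. Per the labels' protocols, stranded libraries were read as single reads of 100 bp. The tools in the submitters' processing notes are STAR, DESeq2, HTSeq 0.6.1 and Trimmomatic 0.32, and the builds are mm10 and GRCm38.p5. The sources used here do not say which annotation was counted or whether strand was used. A value of 0 is not read as absence, since genes that every cell uses, such as mt-Co2, stood at 0 in 12 libraries.

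Exon lengths and positions came from GENCODE M21 on GRCm38, which holds 52488 of the gene identifiers. Multiplied by exon length, low FPKM values are spaced by the worth of 1 read, which gave each library's depth, and 95.3 to 95.9% of values up to 20 reads lay within 0.02 of a whole read. Reads are not independent molecules, so depth bounds counting error only.

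Differences on log2(FPKM + 1) were tested in R 4.3.3 with limma 3.58.1, using a moderated fit with a mean-variance trend. The pseudocount of 1 understates the change of low genes. The fit held 11922 genes, those that reached an FPKM of 1 in 2 or more libraries, and 6 group means over 2 libraries each, with 6 residual and 2.51 prior degrees of freedom. P-values are two-sided and Benjamini-Hochberg adjusted within each of 9 comparisons, and intervals are 95% intervals of the moderated statistic. The code was tested on simulated reads.

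The 46 members and all gene lists were chosen with earlier results of these data known. Values in every library are given for 27 members chosen by role and for members called in WT, in KO or in a difference of RA effects. The library values of Mcm3, Mcm4, Mcm6, Mcm7, Orc6, Pola2, Pole2, Rfc1, Rfc4, Gins2, Gins3 and Gins4 were added after their values were seen. Of other lists, up to 3 called genes with the smallest p for RA in TG are named. For 1 gene that this rule takes, the values are not reported here. Promoter sequences are RefSeq windows on GRCm38.p6. Alternatives were a pseudocount of 0.1, no filter, upper-quartile scaling, only the libraries compared, a replicate block, voom on recovered reads, and leaving out each library. Figures were drawn with matplotlib 3.10.9 and tables handled with pandas 2.3.3 in Python 3.11.15.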

Additional observations from a re-analysis of the deposited data

Results flagged for a closer look

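The effect of RA in TG minus its effect in WT passed the limma test for 5 of the listed genes, which marks them as differing between genotypes. Over all genes tested, 4.75% passed as positive and 2.73% as negative. Among the 46 members 1 passed, Pold2, at -0.35 ± 0.07 (adjusted p = 0.024), with both TG libraries with RA below both without RA and no such order in WT. Among other genes of the programme the difference was -0.44 ± 0.09 for Nme1 (adjusted p = 0.020), -1.03 ± 0.15 for Cdk6 (adjusted p = 0.0056), 1.25 ± 0.22 for Ccnd1 (adjusted p = 0.012) and 0.98 ± 0.08 for Cdkn2d (adjusted p = 0.00025). The difference of Pold2 was lost without WT without RA replicate 1 (-0.33), WT without RA replicate 2 (-0.37), WT with RA replicate 2 (-0.31), TG without RA replicate 2 (-0.32), TG with RA replicate 1 (-0.32) or TG with RA replicate 2 (-0.37), and that of Nme1 without WT without RA replicate 2 (-0.39), WT with RA replicate 2 (-0.42), TG without RA replicate 2 (-0.40), TG with RA replicate 1 (-0.47) or TG with RA replicate 2 (-0.41). Those of Cdk6 and Cdkn2d passed in each of the 14 alternatives run. That of Ccnd1 was lost with a pseudocount of 0.1 and in limma voom. In TG, replicate 1 of each group lacked Xist and replicate 2 carried it, while all WT libraries lacked it, and the part of sex in these differences was not tested.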

How the results depend on the processing

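No called member changed sign under any alternative run. The 22 calls of members were each refitted under up to 14 alternatives, 224 fits in all, of which 75 lost the call and 0 reversed it. The calls of Orc1, Mcm3, Pola2 and Pold2 with RA in TG passed in every one. Leaving out a library accounted for 55 of the lost calls, fitting only the libraries compared for 11, no filter for 7, upper-quartile scaling for 1 (Mcm6) and voom for 1 (Rfc4), while a pseudocount of 0.1 and the block lost 0. Of 32 calls of other listed genes, refitted under the same alternatives as a step chosen after seeing the data, 15 passed in all and 53 of 336 fits lost a call. Members called with RA in TG numbered 17, against 11 with no filter and 11 with only the libraries compared, and 5 to 10 when a library was left out. With RA in WT the count was 1, against 0 with no filter, 3 with upper-quartile scaling (Gins1, Mcm3 and Orc1), 0 with only the libraries compared, and 0 to 2 when a library was left out. For TG against WT with RA it was 3, against 6 with upper-quartile scaling, 0 with only the libraries compared, and 0 to 7 when a library was left out. For the RA effect in TG minus that in WT it was 1, and 0 to 2 when a library was left out. Where a library was left out, its group's other library was assumed to vary like the other groups. When a library was left out, the median of the members, -0.05 in WT and -0.03 in KO, crossed 0 in both, and it ranged from -0.121 to 0.0205 with RA in WT, from -0.0999 to 0.0250 with RA in KO and from -0.205 to -0.0420 for TG against WT with RA. Apart from the fewer libraries or more genes in some fits, the cause was not tested.

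Replicate numbers give only 2 pairs in a comparison, and nothing in the labels says what they share. The deviations of same-numbered libraries correlated over genes at 0.33 between the WT groups, 0.32 between the KO groups and 0.15 between the TG groups, and in TG the number also goes with sex, as Xist shows. With 2 pairs and no statement of a shared mouse, batch or day, the fits reported leave the number out. With the replicate number as a block, 5 members were called with RA in WT (Ccne2, Gins1, Mcm3, Orc1 and Rrm2), 11 for TG against WT with RA and 3 for TG minus WT (Orc1, Pold1 and Pold2), and 23 with RA in TG, against 17 without the block. Precision is limited by 2 libraries a group, and the widest interval with RA in TG was that of Tk1, the member with the lowest values, at 5.24 to 9.22 FPKM.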
